A study of Mus musculus with 10 samples.

Results

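The genes examined here are 42 genes of DNA replication, out of 43629 gene identifiers in the count tables. They are factors for origin licensing, the replicative helicase, DNA synthesis and nucleotide supply. The list was chosen with earlier results of these data known, so counts over it are descriptive. Each of the 42 was found as 1 row of the tables, and each passed the low-count filter, so all 42 are among the 17039 genes tested. The samples were dorsal telencephalon, the embryonic tissue that gives rise to the cerebral cortex, taken at E14.5 from C57BL/6 mouse embryos of which 5 were control and 5 Dot1l-cKO. Total RNA was sequenced after removal of ribosomal RNA, and the comparison asks which transcripts differ when Dot1l, the gene of the methyltransferase for histone H3 lysine 79, is deleted.

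Controls carried no Cre and 1 floxed Dot1l allele (f/+). Dot1l-cKO embryos carried 1 copy of a Cre knock-in (Cre/+) and 2 floxed Dot1l alleles (f/f), so effects of the Cre knock-in and of the Dot1l deletion cannot be told apart. The floxed allele is present in both groups. In whole tissue, fewer cells of a type and less RNA per cell cannot be told apart either.

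DNA is copied in the S phase of the cell cycle. Before it, the origin recognition complex together with Cdc6 and Cdt1 loads the MCM helicase on DNA, and geminin blocks Cdt1 once replication has begun. Cdc45 and the GINS complex then switch the helicase on, primase and the polymerases copy both strands behind it, and E2F transcription factors are known to switch on many of these genes before S phase. In the E14.5 cortex the dividing progenitors of the ventricular zones replicate DNA, whereas neurons have left the cell cycle.

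Promoter sequences of these genes were searched for that factor's binding words. The 4 words TTTCCCGC, TTTGGCGC, TTTCGCGC and TTTGCCGC, which are forms of the E2F binding sequence, were searched on both strands, counting overlapping matches, in windows of 300 bases running from 250 bases before to 50 bases after each start in the RefSeq table (GRCm38.p6). Of the 42 genes, 34 had an entry, with 41 windows. At least 1 word was present for 13 of the 34 genes (38.2%), against 704 of all 27025 genes (2.6%). The share was 26.3% of 38 genes in a wider list of replication genes and 12.5% of 8 markers of cycling cells, both described further on. By window the shares were 31.7% of 41 and 2.26% of 32851. The 13 genes were Mcm3, Mcm5, Mcm6, Mcm7, Orc1, Orc3, Cdc6, Cdt1, Gins3, Pola1, Pold1, Rfc3 and Lig1. In Mcm3, Cdt1, Pold1 and Lig1 the words lay only within the 50 bases after the start. The genes of the whole RefSeq table were not matched to the list in base composition, and its part in the shares was not tested. A match is a description of the letters, and factor binding was not measured here.

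Windows of 30 bases around a word are printed for 4 of these genes, with the words in capitals, read 5′ to 3′ on the strand of the gene. They were chosen after the values were seen, as windows that lie upstream of the annotated gene in both annotations used, and they stand for the helicase, the origin recognition complex and the polymerases. The window of Mcm5, chr8:75109349-75109378 on the plus strand, holds 2 words that overlap on opposite strands. Those of Mcm6 (chr1:128359734-128359763), Orc3 (chr4:34614965-34614994) and Pola1 (chrX:93632275-93632304) lie on the minus strand.
Mcm5: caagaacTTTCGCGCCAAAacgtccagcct
Mcm6: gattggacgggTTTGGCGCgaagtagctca
Orc3: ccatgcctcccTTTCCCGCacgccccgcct
Pola1: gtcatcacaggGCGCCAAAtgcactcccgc

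The log2 fold changes between the genotypes, described next, had a median of −0.21 over the 13 genes with a word. The median was −0.17 over the 21 genes that had a RefSeq entry and no word. Both lie inside the quartiles of the whole list, −0.26 and −0.10, and the difference between them was not tested. The RefSeq window of Rrm2, the gene with the clearest genotype difference below, held none of the 4 words.

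Total counts were 54202349 to 66556034 per sample, and the 42 genes had 214 to 19045 counts each in a sample. The 4 samples whose normalised tables carry the header number 57, replicates 2 and 3 of both groups, had 0.0471% to 0.492% of their counts in mitochondrial rRNA, and the other 6 samples had 5.79% to 10.9%. What the number stands for is not given, so results are also given within each set. The targeted gene, Dot1l, had 31.4, 41.5, 36.6, 40.6 and 36.3 CPM (counts scaled to a common total of 1e+06 by the TMM-normalised library size) in control replicates 1 to 5 and 42.3, 20.1, 39.6, 43.4 and 51.7 CPM in the Dot1l-cKO samples in that order, a log2 fold change of 0.08 with an edgeR adjusted p of 0.864. A gene count adds all exons and does not isolate the deleted part, so it checks neither group.

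Levels of the DNA replication genes had a small shift to lower values in Dot1l-cKO that ran through nearly the whole list. Of the 42 genes, 40 had a lower and 2 a higher fitted level in Dot1l-cKO, Rfc2 and Orc6, and Orc6 lay so near 0 that DESeq2's scaling turned its sign (−0.02). The median log2 fold change was −0.19, and the middle of the list lay between −0.26 and −0.10. Over all 17039 genes tested, 51.2% were lower and the median was −0.01. Over the 10990 genes expressed at or above the level of the lowest of the 42, 58.0% were lower and the median was −0.03. Added up per sample, the 42 genes made 3530, 3800, 3710, 3400 and 2830 CPM in the controls, replicates 1 to 5, and 2790, 3360, 3160, 2980 and 2750 CPM in the Dot1l-cKO samples in that order. Control replicate 5 lay among the Dot1l-cKO samples, and the other 4 controls were above every Dot1l-cKO sample. The mean sums were 3450 ± 381 CPM (SD, n = 5) and 3010 ± 256 CPM (SD, n = 5), a change of −12.9%.

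Few of these differences passed the test gene by gene. With edgeR's quasi-likelihood test and Benjamini-Hochberg adjustment over all genes tested, 1 of the 42 fell at an adjusted p-value under 0.05, Rrm2, which is 2.38% of the list, against 1.44% of all genes that were called decreased. None rose, against 5.67% of all genes, and no listed gene that was higher had an unadjusted p under 0.05. At an unadjusted p under 0.05, 13 of the 42 (31%) were lower, against 7.3% of all genes. With 1 sample left out, the number of the 42 that were lower at that threshold was between 8, without control replicate 2, and 24, without control replicate 5. In 0 of the 42 did the 5 Dot1l-cKO values all lie below the 5 control values, against 2.17% of all genes.

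Fits that use the spread in another way called more. Deviations from the group means correlated at 0.131 to 0.597 for samples with the same replicate number. For different numbers the correlations were −0.534 to 0.446, so the ranges overlap and the pairing is an assumption. With the replicate number as a block edgeR called 9 of the 42 decreased (21.4%), against 2.91% of all genes, and none increased, against 6.51%. These were Cdt1, Cdc45, Mcm10, Pola1, Prim1, Rfc4, Tyms, Rrm1 and Rrm2. DESeq2 without a block called 7 of the 42 decreased (16.7%) and none increased. Over the 28410 genes with a DESeq2 p-value the shares were 2.33% and 4.74%. That base includes genes that edgeR's low-count filter removed, so these 2 shares cannot be set directly beside the edgeR shares over 17039 genes. All 42 genes passed that filter, so the base is not matched to the list in level either. The DESeq2 calls were Cdc6, Cdt1, Cdc45, Mcm10, Tyms, Rrm1 and Rrm2. Of the 6 genes that DESeq2 called and edgeR without the block did not, each had an edgeR adjusted p between 0.0813 and 0.106.

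**Figure D1:**
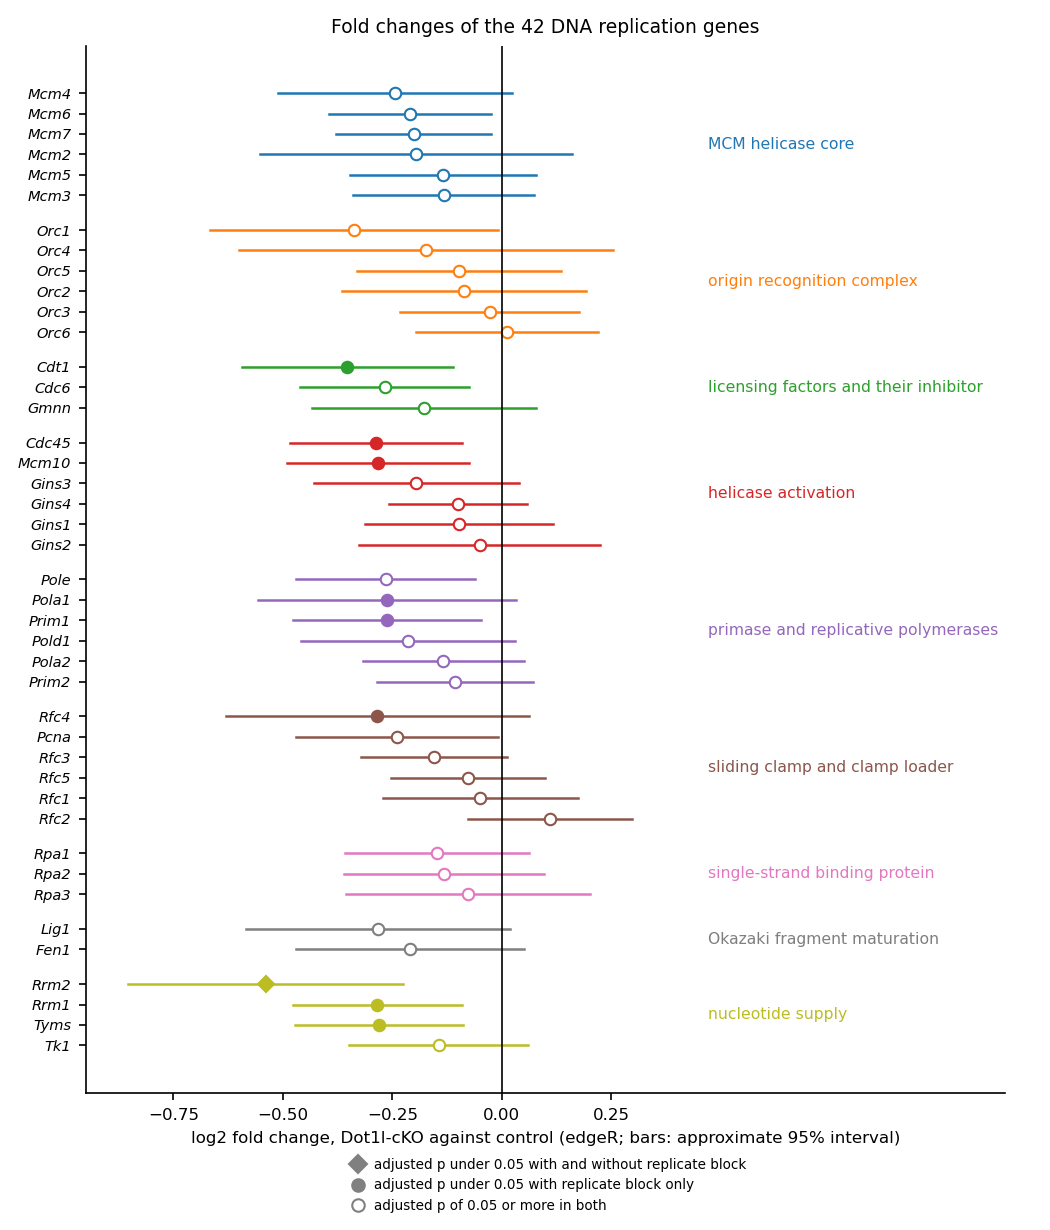
Log2 fold change of each of the 42 genes between Dot1l-cKO and control (x axis), by role, with approximate 95% intervals. Diamonds mark a call with and without the replicate block, filled circles a call with the block alone and open circles no call. All points but Rfc2 and Orc6, which turned to −0.02 in DESeq2, lie below 0, and Rrm2 lies lowest at −0.54.

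The nucleotide supply enzymes held the one gene that fell at an adjusted p under 0.05 in every fit over all 10 samples. Rrm2 (ENSMUSG00000020649, chromosome 12 from 24708241 to 24714146, plus strand) encodes the small subunit of ribonucleotide reductase, the enzyme that makes deoxyribonucleotides, and its level is limiting for that enzyme in S phase. Its values were 183, 218, 196, 184 and 129 CPM in the controls, replicates 1 to 5, and 118, 139, 150, 119 and 100 CPM in the Dot1l-cKO samples in that order. Control replicate 5 lay inside the Dot1l-cKO range, the other 4 controls lay above it, and in each of the 5 pairs with the same number the Dot1l-cKO sample was lower. The means were 182 ± 32.7 and 125 ± 19.5 CPM (SD, n = 5 each), a change of −31.2%. The log2 fold change was −0.54 (SE 0.14, 95% interval −0.85 to −0.23), with an edgeR adjusted p of 0.0444. With the replicate block it was −0.53 and the edgeR adjusted p was 0.00523.

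The call of Rrm2 lay close to the threshold. It was kept without control replicate 5 (edgeR adjusted p 0.00946) and without Dot1l-cKO replicate 3 (edgeR adjusted p 0.041), and it was lost when any other of the 10 samples was left out, with edgeR adjusted p-values of 0.0548 to 0.108. The fold change over these fits was −0.64 to −0.47. Within the samples with header number 57 it was −0.50, and within the other 6 it was −0.56, with edgeR adjusted p-values of 0.184 and 0.0735.

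The other nucleotide supply genes were also lower. Rrm1, the large subunit of the same enzyme, had a mean of 277 ± 29.2 CPM in controls, against 227 ± 17.8 CPM (SD, n = 5 each), with a log2 fold change of −0.28 and an edgeR adjusted p of 0.0813 (0.0451 with the block). Tyms, thymidylate synthase, which makes thymidine monophosphate, had 60.5 ± 6.33 CPM in controls against 49.8 ± 4.30 CPM, also −0.28, with an edgeR adjusted p of 0.0833 (0.0256 with the block). Both were lower in Dot1l-cKO in 5 of 5 pairs. Tk1, the thymidine kinase of the salvage route, had a log2 fold change of −0.14 (edgeR adjusted p 0.434).

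The helicase itself is a ring of 6 different MCM subunits, and all 6 had lower fitted levels, between −0.24 and −0.13 on the log2 scale, with a median of −0.20. None was called without a block or with the replicate block, and Mcm6 was called with the header number as a block (edgeR adjusted p 0.0403). Mcm7 (chromosome 5 from 138164583 to 138172422, minus strand) had the lowest p of them. It had 257, 289, 275, 270 and 223 CPM in the controls, replicates 1 to 5, and 204, 236, 231, 242 and 230 CPM in the Dot1l-cKO samples in that order. The groups overlapped through control replicate 5, which was also the only control below its same-numbered Dot1l-cKO sample. Its log2 fold change was −0.20 (SE 0.08, unadjusted p 0.029, edgeR adjusted p 0.181). Mcm6 was nearly the same at −0.21 (edgeR adjusted p 0.185), followed by Mcm4 at −0.24 (0.291), Mcm2 at −0.20 (0.554), Mcm3 at −0.13 (0.482) and Mcm5 at −0.13 (0.489), each with its edgeR adjusted p. Mcm2 had the widest spread of the 6, with a control SD of 32.8 CPM.

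The origin recognition complex, which marks the start sites of replication, had the smallest difference among the roles, with a median log2 fold change of −0.09 and 5 of 6 subunits lower. The size of the difference varied among its subunits. Orc1 (chromosome 4 from 108579423 to 108614833, plus strand), the subunit whose level is known to follow the cell cycle, had 6.27, 7.74, 7.48, 6.54 and 4.86 CPM in the controls, replicates 1 to 5. The Dot1l-cKO samples, in the same order, had 4.04, 5.36, 5.57, 5.19 and 5.88 CPM. Control replicate 5 was below 4 of the 5 Dot1l-cKO samples, and the other controls were above all of them. The log2 fold change was −0.34 (SE 0.15, unadjusted p 0.0454, edgeR adjusted p 0.230). The remaining subunits were Orc2 at −0.09 (0.760), Orc3 at −0.03 (0.904), Orc4 at −0.17 (0.676), Orc5 at −0.10 (0.661) and Orc6 at 0.01 (0.966), each with its edgeR adjusted p. Orc4 varied most, since its Dot1l-cKO values were 46.2, 47.6 and 43.2 CPM in replicates 1 to 3 and 24.6 and 25.8 CPM in replicates 4 and 5.

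Of the licensing factors, Cdt1 (chromosome 8 from 122568015 to 122573554, plus strand) came closest to the threshold. Cdt1 escorts the MCM ring to the origin. Its values were 33.2, 39.9, 39.2, 31.5 and 27.9 CPM in the controls, replicates 1 to 5, and 23.9, 27.5, 30.4, 27.8 and 24.9 CPM in the Dot1l-cKO samples in that order. It was lower in 5 of 5 pairs, and the groups overlapped again through control replicate 5. The log2 fold change was −0.35 (SE 0.11), with an edgeR adjusted p of 0.0822, and of 0.0318 with the replicate block. Cdc6, the ATPase that loads the helicase with it, had a log2 fold change of −0.27 with an edgeR adjusted p of 0.0991 (0.0533 with the replicate block and 0.0333 with the header-number block). Gmnn, which encodes geminin, the inhibitor of Cdt1, had −0.18 with an edgeR adjusted p of 0.441.

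Among the factors that switch the loaded helicase on, Cdc45 (chromosome 16 from 18780447 to 18811987, minus strand) had 42.4, 42.7, 40.9, 40.5 and 33.7 CPM in the controls, replicates 1 to 5. The Dot1l-cKO samples, in the same order, had 29.8, 37.4, 34.3, 32.8 and 29.7 CPM. The 4 other controls were within 3 CPM of each other, and control replicate 5 fell in the Dot1l-cKO range. Cdc45, a part of the active helicase, had a log2 fold change of −0.29 (SE 0.09) with an edgeR adjusted p of 0.0823, and 0.0369 with the replicate block. Mcm10, which helps the helicase to start, had −0.28 with an edgeR adjusted p of 0.106 (0.0461 with the block). The GINS subunits, which travel in the same helicase as Cdc45, had smaller fitted differences. They were −0.10 for Gins1 (edgeR adjusted p 0.630), −0.05 for Gins2 (0.864), −0.19 for Gins3 (0.342) and −0.10 for Gins4 (0.488).

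The primase and polymerase genes were all lower, with a median log2 fold change of −0.24. Pole (chromosome 5 from 110286306 to 110337474, plus strand), the catalytic subunit of the polymerase of the leading strand, had 82.1, 95.5, 93.3, 87.6 and 78.2 CPM in the controls, replicates 1 to 5. The Dot1l-cKO samples, in the same order, had 58.1, 73.9, 79.4, 75 and 76.9 CPM. Control replicate 5 lay below Dot1l-cKO replicate 3 and above the other 4, and Dot1l-cKO replicate 1 was far below the rest. The log2 fold change was −0.27 (SE 0.09, unadjusted p 0.0155, edgeR adjusted p 0.125), and the edgeR adjusted p was 0.0617 with the replicate block and 0.0434 with the header-number block. Pola1 and Prim1, the catalytic subunits of polymerase alpha and of primase, which together start each new strand, both had −0.26. Their edgeR adjusted p-values were 0.306 and 0.151 without the block and 0.0496 and 0.0480 with it. With the header number as a block they were 0.0425 and 0.0593, so that the call of Prim1 was lost. Their partner subunits Pola2 and Prim2 had −0.13 (edgeR adjusted p 0.416) and −0.11 (0.515). Pold1, the catalytic subunit of the lagging-strand polymerase, had −0.21 (edgeR adjusted p 0.316).

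Pcna (chromosome 2 from 132249162 to 132253314, minus strand) encodes the ring that holds the polymerases on DNA. It had 234, 237, 226, 218 and 172 CPM in the controls, replicates 1 to 5, and 177, 213, 185, 190 and 156 CPM in the Dot1l-cKO samples in that order. In all 5 pairs the Dot1l-cKO sample was lower, and the lowest sample of both groups was replicate 5. The log2 fold change was −0.24 (SE 0.10, unadjusted p 0.0429, edgeR adjusted p 0.224), with an edgeR adjusted p of 0.0513 under the replicate block and 0.0489 under the header-number block. The subunits of the clamp loader, which opens the ring, had fitted differences of several sizes. Rfc4 had −0.28 with an edgeR adjusted p of 0.350 (0.0437 with the block), Rfc3 −0.16 (0.279), Rfc5 −0.08 (0.647), Rfc1 −0.05 (0.835) and Rfc2 0.11 (0.520). Rfc2 was the only one of the 42 genes that was lower in fewer than 3 of the 5 pairs.

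The 3 subunits of replication protein A, which coats single-stranded DNA, had log2 fold changes of −0.15 for Rpa1, −0.13 for Rpa2 and −0.08 for Rpa3, with edgeR adjusted p-values of 0.437, 0.528 and 0.788. Rpa1 (chromosome 11 from 75298166 to 75348324, minus strand) had 140, 145, 155, 131 and 113 CPM in the controls, replicates 1 to 5, and 111, 140, 130, 120 and 115 CPM in the Dot1l-cKO samples in that order, with wide overlap. The pair of enzymes that finish the Okazaki fragments of the lagging strand are the flap nuclease Fen1, at −0.21 (edgeR adjusted p 0.364), and the ligase Lig1, at −0.28 (0.276). Lig1 (chromosome 7 from 13277283 to 13311433, plus strand) had 72.5, 96.2, 95.9, 79.4 and 60.3 CPM in the controls, replicates 1 to 5, and 55.1, 71.5, 78.5, 64.4 and 62.9 CPM in the Dot1l-cKO samples in that order. In both groups replicates 2 and 3, the samples with header number 57, were the highest.

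**Figure D2:**
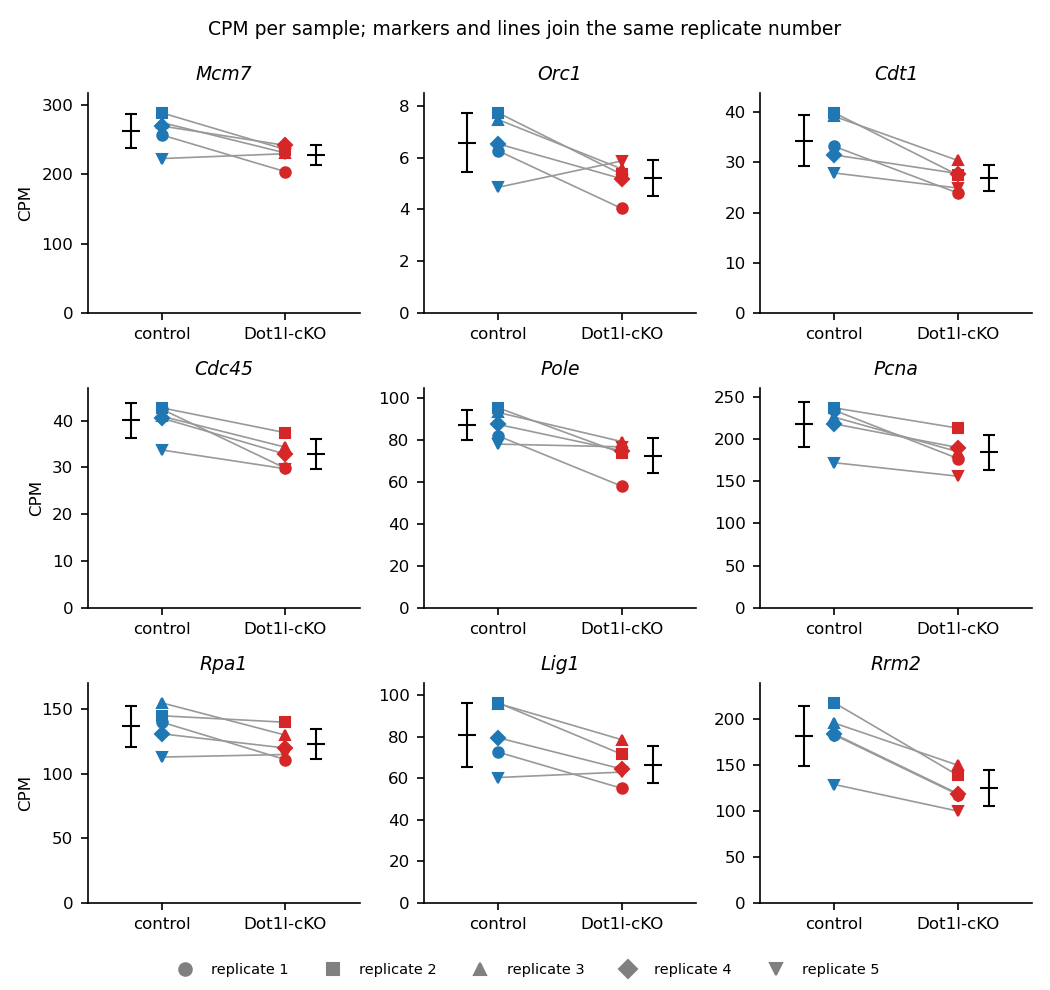
CPM (y axis, from 0) in each sample for Rrm2 and for the gene with the lowest p in each other role. Blue points are controls, red points Dot1l-cKO, lines join the same replicate number, and black bars give the mean ± SD of 5 samples. The line of replicate 5 starts lowest in all 9 panels and has its Dot1l-cKO end higher than its control end in Mcm7, Orc1, Rpa1 and Lig1.

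Differences between samples of a group also ran across the list. Control replicate 5 was the lowest of the 5 controls for 41 of the 42 genes, and Dot1l-cKO replicate 2 was the highest of its group for 28. Control replicate 2 was the highest control for 22 genes. Dot1l-cKO replicates 5 and 1 were the lowest of their group for 17 and 16 genes.

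By pairs of the same number, 41, 32, 38, 36 and 25 of the 42 genes were lower in the Dot1l-cKO sample for numbers 1 to 5. The median log2 differences of these pairs were −0.32, −0.15, −0.24, −0.19 and −0.04. Every pair thus had more of the genes lower than higher, and the size differed from a summed change of −21.1% in pair 1 to −2.88% in pair 5. By gene, 17 of the 42 were lower in all 5 pairs, 13 in 4, 11 in 3 and 1 in fewer. Pair counts were not made over all genes. The 42 genes share their samples, so these counts are not independent of each other.

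The count of calls depended on control replicate 5. Without it, edgeR called 8 of the 42 decreased, Mcm6, Cdc6, Cdt1, Cdc45, Mcm10, Tyms, Rrm1 and Rrm2, which is 19% of the list against 1.99% of all genes, and the median log2 fold change was −0.26. Without Dot1l-cKO replicate 2, Cdc45 and Prim1 were called (4.76% of the list against 1.23% of all genes), and Rrm2 was not. Without any of control replicates 1 to 4 or Dot1l-cKO replicates 1, 4 or 5, no gene of the list was called. In those fits 0.723% to 1.52% of all genes were called decreased, so 0 of the 42 lies near the background.

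**Figure D3:**
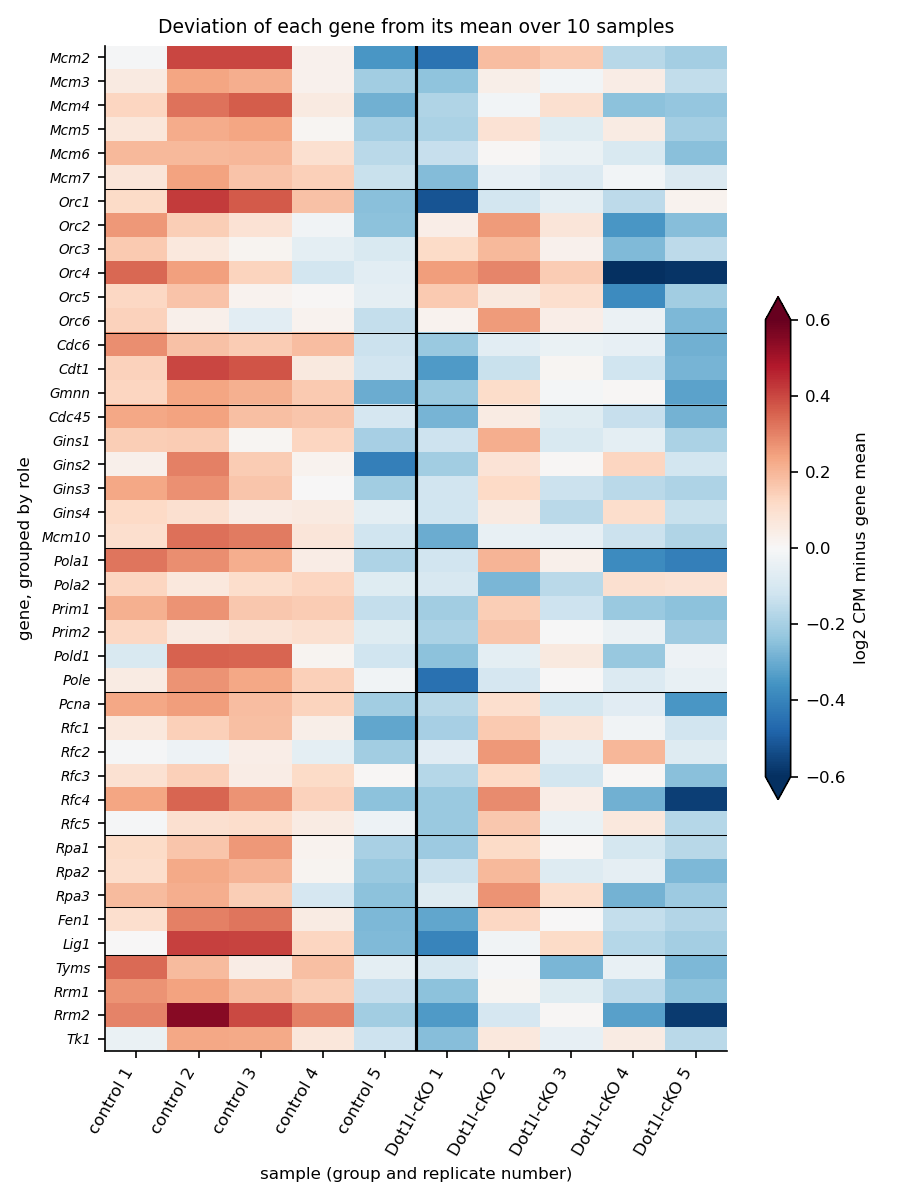
Deviation of log2 CPM of each of the 42 genes (rows, grouped by role) from its mean over the 10 samples (columns), red above and blue below, with colours saturating at ±0.6. The columns of control replicates 1 to 4 are mostly red, that of control replicate 5 is mostly blue, and among Dot1l-cKO samples replicate 2 is mostly red.

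The median difference was close in both sets of header numbers. Within header number 57, with 2 samples per group, 33 of the 42 genes were lower and the median log2 fold change was −0.19. The other 9 were Rfc2, Orc6, Orc2, Orc3, Orc4, Orc5, Gins1, Prim2 and Rpa3, so that 5 of the 6 subunits of the origin recognition complex were not lower in this set. Within the other 6 samples, 3 per group, 40 were lower and the median was −0.18. None of the 42 was called in either set, where 0% and 0.896% of all genes were called decreased, so these counts lie near the background. The test of whether the genotype difference itself differed between the sets called 0 of 17039 genes in edgeR, with 1071 genes at an unadjusted p under 0.05, none of them among the 42. The lowest unadjusted p in the list was 0.0802, with an edgeR adjusted p of at least 0.728 for all 42 genes. With the header number as a block, edgeR called 12 of the 42 decreased (28.6%), against 3.5% of all genes. These were Mcm6, Cdc6, Cdt1, Cdc45, Mcm10, Pola1, Pole, Pcna, Rfc4, Tyms, Rrm1 and Rrm2.

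**Figure D4:**
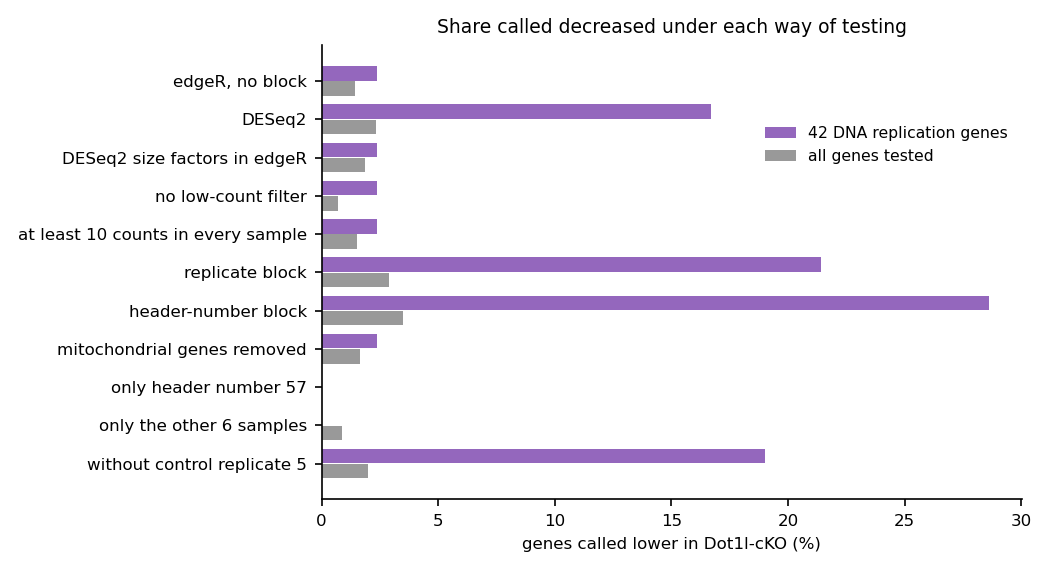
Percent of genes called lower in Dot1l-cKO (x axis, from 0) among the 42 DNA replication genes (purple) and among all genes tested (grey) under each way of testing. The genes tested numbered 17039 in edgeR without a block and 28410 in DESeq2. The purple bar is 2.38% for edgeR without a block, 21.4% with the replicate block and 0 within either set of header numbers.

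Levels per transcript length differed widely among the 42 genes. In controls Pcna was highest of the 42 at 143 ± 17.5 CPM per kb (SD, n = 5), using the length of the longest principal transcript in GENCODE. Mcm7 at 88.7 ± 8.52 and Rrm2 at 83.0 ± 14.9 CPM per kb came next and did not differ beyond their spread, and Mcm6 at 75.9 ± 7.71 and Rrm1 at 69.3 ± 7.31 CPM per kb followed. The 6 MCM subunits, which join in equal numbers, ranged from 37.8 CPM per kb for Mcm4 to the value of Mcm7. The lowest of the 42 was Orc1 at 2.18 ± 0.379 CPM per kb, below Gins2 at 4.37 ± 0.755 and Gins3 at 5.96 ± 0.773. These ranks depend on the transcript length used. Before division by 3900 and 2519 bases, Gins2 had 17.1 and Gins3 15 CPM in controls. Within the origin recognition complex Orc6 reached 37.3 ± 2.74 CPM per kb, far above Orc1. In Dot1l-cKO Rrm2 had 57.2 CPM per kb, close to Rrm1 at 56.9, and Pcna at 121 and Mcm7 at 77.2 CPM per kb remained the 2 highest.

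**Figure D5:**
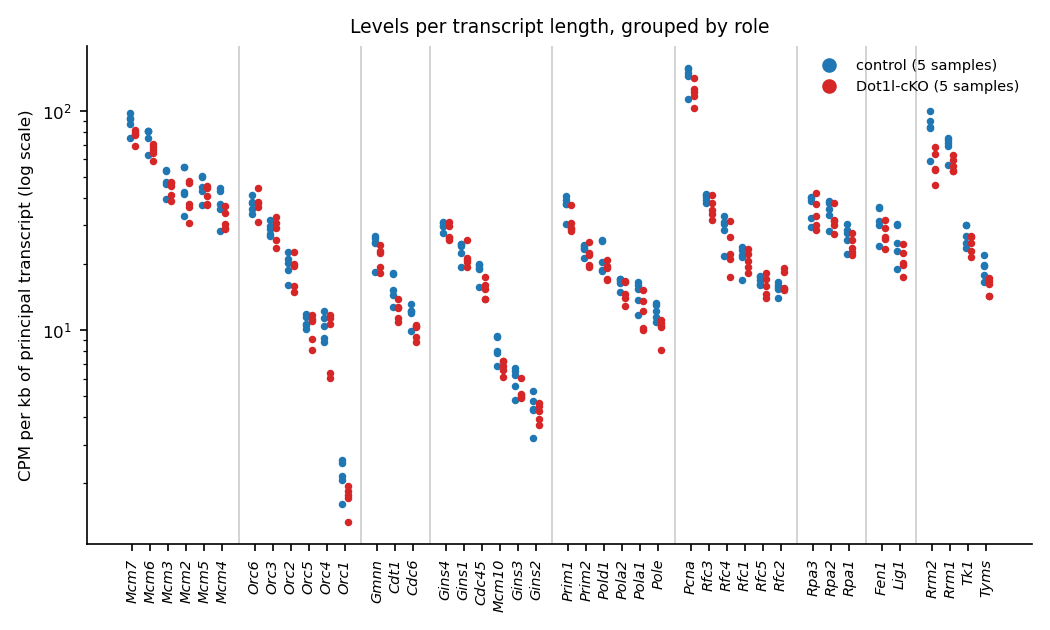
CPM per kb of principal transcript (y axis, log scale) of the 42 genes by role, with 1 point per sample, control in blue and Dot1l-cKO in red. Pcna, Mcm7 and Rrm2 are at the top and Orc1 at the bottom, and the 2 colours overlap for every gene.

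Other genes of the pathway were read from a wider list of 45 replication genes, which holds further polymerase subunits, helicase regulators and clamp loaders. Of these, 41 were lower, with a median log2 fold change of −0.16. Without a block edgeR called 2 decreased and 1 increased, against 1.44% and 5.67% of all genes. With the replicate block it called 9 and 1, against 2.91% and 6.51% of all genes. The 9 were Atad5, Dck, Pole2, Dbf4, Timeless, Clspn, Chek1, Mcmbp and Dut. The 2 that fell were Atad5, which unloads Pcna from DNA (−0.36, from 71.8 ± 6.38 to 56.0 ± 5.31 CPM, edgeR adjusted p 0.0274), and Dck, the deoxycytidine kinase of nucleotide salvage (−0.41, from 101 ± 13.1 to 76.4 ± 6.97 CPM, edgeR adjusted p 0.0320). Pold4, a small accessory subunit of polymerase delta, rose by 0.50 on the log2 scale, from 4.70 ± 0.651 to 6.63 ± 0.728 CPM (edgeR adjusted p 0.0372). DESeq2 without a block called these genes too, and it also called Wdhd1, Timeless, Clspn, Mcmbp and Dna2 decreased. Its shares were 2.33% decreased and 4.74% increased over the 28410 genes with a DESeq2 p-value, which include genes below edgeR's filter.

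The E2F and pocket protein genes, which regulate entry into S phase, had 10 of 11 members lower and a median log2 fold change of −0.24. E2f2, one of the activating E2F factors, fell by 0.58 on the log2 scale, 19.9 ± 3.23 CPM in controls against 13.3 ± 1.48 CPM (SD, n = 5 each), at an edgeR adjusted p of 0.0166. With the block E2f3 was called as well (−0.31, edgeR adjusted p 0.0256). Of all genes, edgeR called 1.44% decreased without the block and 2.91% with it. DESeq2 without a block called E2f2 and also E2f7 (DESeq2 adjusted p 0.0135), which had an edgeR log2 fold change of −0.42 and an edgeR adjusted p of 0.0698.

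Markers of cycling cells were lower as well. The list holds 10 genes outside the 42, most of them of mitosis, and some, such as Ccna2, Cdk1 and Top2a, are known to act in or after S phase too. All 10 were lower, with a median log2 fold change of −0.19. EdgeR called 0 of them, against 1.44% of all genes called decreased, with Plk1 at an unadjusted p under 0.05 (0.0229). With the replicate block Bub1 was called (−0.29, edgeR adjusted p 0.0380), against 2.91% of all genes called decreased. The summed level of the 10 markers was 2570, 2470, 2300, 2280 and 1870 CPM in the controls, replicates 1 to 5, and 1860, 2190, 2080, 1950 and 1910 CPM in the Dot1l-cKO samples in that order. Control replicate 5 was again the lowest control, and Dot1l-cKO replicate 2 the highest of its group. The means differed by −13.0%, against −12.9% for the 42 genes. Top2a and Mki67 weighed most in the sum, with control means of 822 and 514 CPM. By gene the log2 fold changes ran from −0.33 for Plk1 to −0.03 for Ccnb2. Whether the share of cycling cells accounts for the shift was not tested.

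Markers of progenitors differed in both directions. Of 12, 7 were lower, 1 fell and 3 rose, the median log2 fold change was −0.15, and the summed level was 2810 to 3620 CPM in controls against 3510 to 3910 CPM in Dot1l-cKO, with Vim at 919 ± 79.2 and 1320 ± 128 CPM (SD, n = 5 each). Pax6, a transcription factor of cortical progenitors, fell by 0.36 on the log2 scale (edgeR adjusted p 0.0294). Vim, Fabp7 and Slc1a3, genes of radial glia, rose by 0.53, 0.62 and 0.43 on that scale (edgeR adjusted p 0.00451, 0.0122 and 0.00447). With the block Sox2, another progenitor factor, fell as well (−0.38, edgeR adjusted p 0.00906). Over all genes, edgeR called 1.44% decreased and 5.67% increased without the block, and 2.91% and 6.51% with it. Of 12 markers of cortical neurons, 3 were lower and 1 rose, Gap43, a growth cone protein, by 0.46 on the log2 scale (edgeR adjusted p 0.0161), and the block added Neurod2 (0.34, edgeR adjusted p 0.0206). Their summed level was 4370 to 6220 CPM in controls against 5110 to 6130 CPM in Dot1l-cKO, with the highest value of all samples in control replicate 5.

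Markers of some other cell types differed between the genotypes, and their part in the shift was not tested. Markers of the ventral telencephalon summed to 63.4 to 324 CPM in controls against 6.31 to 94.6 CPM in Dot1l-cKO, with 8 of 8 tested markers lower, 2 of them called, Lhx6 (−3.00, edgeR adjusted p 0.00187) and Sst (−2.65, 0.0275), and no marker of the 9 at 0 in all samples. Microglia markers summed to 32.9 to 55.6 CPM in controls against 66.3 to 100 CPM in Dot1l-cKO, and 7 of 7 rose, by 0.77 for Aif1 to 1.11 for Trem2 on the log2 scale, all but Aif1 also with the replicate block. Genes of these 2 lists were named after their values were seen. Over all genes, edgeR called 1.44% decreased and 5.67% increased without the block, and 6.51% increased with it. Choroid plexus markers ranged from 1.18 to 638 CPM in controls against 1.64 to 148 CPM in Dot1l-cKO, with 4 of 4 lower and none called. Erythroid markers summed to 579 to 2500 and 883 to 2180 CPM and endothelial markers to 123 to 226 and 112 to 256 CPM, with none called in either list. Without the block, no marker of these last 3 lists had an unadjusted p under 0.05.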

How the data were processed

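Total RNA of 10 samples was sequenced by the authors as stranded libraries after ribosomal RNA depletion. Each sample is labelled a biological replicate, and the study took controls and Dot1l-cKO embryos as littermates. Per the labels and the study's methods, reads were trimmed with Trim Galore 0.2.8, mapped to mm10 with TopHat2 2.0.9 and counted per gene of Ensembl release 79 with HTSeq 0.6.0 in reverse-stranded mode. The deposited counts are whole reads per gene. The deposited normalised counts, a signal without a fixed total, are the same counts divided by the DESeq2 1.6.1 size factor of each sample (largest relative deviation 9.9e-15), and they were used only for this check and for the header numbers, which are 51, 57, 57, 90 and 154 for replicates 1 to 5 of both groups. Of 43629 identifiers, 42462 had a GENCODE symbol, and the rest held 0.268% of the counts. Gene coordinates are GRCm38. Replicates of a group differed by a chi-square per degree of freedom of at least 30.8, so each was counted once. Reads carry no molecular identifiers, so the total counts of 54202349 to 66556034 bear on counting error only.

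Counts were tested with edgeR 4.0.16 in R 4.3.3 with filterByExpr, TMM and the quasi-likelihood test, without a covariate, and p-values were adjusted by Benjamini-Hochberg over all 17039 genes tested. Genes with an adjusted p under 0.05 were called. Standard errors are the log2 fold change divided by the square root of F and are approximate, as are the 95% intervals. Scripts were tested on simulated counts. The correlation of deviations from the group mean was 0.229, 0.349, 0.145, 0.597 and 0.131 for samples with the same replicate number (−0.534 to 0.446 for different numbers). Each same-number value was over 0.1, so the numbers were taken to pair the samples, although the ranges overlap. A fit with the replicate block is given beside the results. The alternatives were DESeq2 1.42.0, its size factors in edgeR, no filter, a minimum of 10 counts in each sample, blocks of replicate or header number, mitochondrial genes removed, each set of header numbers alone, an adjusted p under 0.01 and each sample left out.

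Fold change and adjusted p are given for each of the 42 genes. Values per sample are given for each called gene and, in each role without one, for the gene with the lowest p. From the lists of other replication genes, E2F and pocket protein genes, cycling cells, progenitors and neurons, called genes are named. Members and lists were chosen with earlier results of these data known. Exon-level reads were not analysed here. Another gene of the rule for named genes is not reported here.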

Additional observations from a re-analysis of the deposited data

Results flagged for a closer look

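Among 86 groups of 5 samples (the 42 genes and Dot1l in both genotypes), 8 held a sample whose gap to its nearest neighbour was over 0.71 of the whole range, Dixon's limit for 5 samples. Chance gives this in about 1 in 20 groups, and the genes share their samples. Control replicate 5 was the low sample in 5 of the 8. In Gmnn it had 20.8 CPM against 28.0 to 30.1 CPM in the other controls (0.807 of the range), and in Cdc45 33.7 against 40.5 to 42.7 CPM (0.77). In Pcna it had 172 against 218 to 237 CPM (0.749), in Prim1 48.3 against 59.3 to 64.3 CPM (0.718) and in Mcm6 183 against 219 to 235 CPM (0.714). Among Dot1l-cKO samples, replicate 1 was low in Pole, with 58.1 against 73.9 to 79.4 CPM (0.77). Replicate 2 was high in Gins3, with 15.2 against 12.3 to 12.9 CPM (0.791), and low in Dot1l itself, with 20.1 against 39.6 to 51.7 CPM (0.717). The cause of these gaps was not tested.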

How the results depend on the processing

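The count of the 42 genes called decreased, 1 in edgeR without a block, was 7 in DESeq2, 9 with the replicate block, 12 with the header-number block, and 0 within header number 57, within the other 6 samples and at an adjusted p under 0.01. It was 0 to 8 when a sample was left out. None was called increased under any of these alternatives. The median log2 fold change of the 42 stayed below 0 under all of them and was −0.26 to −0.14 with a sample left out. Over all genes, 246 were called decreased, and this became 663 in DESeq2, 495 with the replicate block, 597 with the header-number block, 0 within header number 57, 155 within the other 6 samples and 73 at an adjusted p under 0.01. The 966 called increased became 1, 590 and 422 under the last 3 of these. With a sample left out the counts were 126 to 343 decreased and 624 to 1076 increased. Signs turned only in genes that were not called. Within header number 57 the log2 fold changes were 0.0677 for Orc2, 0.092 for Orc3, 0.0539 for Orc4, 0.000341 for Orc5, 0.00562 for Gins1, 0.0353 for Prim2, 0.0295 for Rpa3 and −0.371 for Dot1l. Orc6 was −0.0159 in DESeq2, −0.0128 with DESeq2 size factors in edgeR, −0.00112 without a filter, −0.00139 without mitochondrial genes and −0.107 within the other 6 samples, where Gins2 was 0.0463. With a sample left out, Orc3 ranged from −0.084 to 0.0306, Orc6 from −0.0581 to 0.0661, Gins2 from −0.146 to 0.0222 and Dot1l from −0.0458 to 0.247. The causes of these changes were not tested. Each of the 42 genes had at least 214 counts in every sample.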
